A study of Mus musculus with 4 samples.

Results

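The genes described here supply and run the glutathione and thioredoxin systems of the macrophage. They are 10 genes of the 11111 in the table, taken by symbol, and they cover cystine import (Slc7a11), glutathione synthesis (Gclc, Gclm, Gss), glutathione reduction and use (Gsr, Gpx1) and the thioredoxin system (Txnrd1, Txn1, Prdx1, Srxn1). All 10 averaged 50 reads or more per library. RNA sequencing measured transcripts in macrophages after 7 days of culture of wild-type C57BL/6 mouse bone marrow. The medium, replaced on day 4, contained serum and the thiol 2-mercaptoethanol at 50 µM. Cells of 1 group received a control morpholino (Ctrl MO, 2 libraries) and cells of the other received morpholinos directed at Regnase-1 (Reg1-MOs, 2 libraries), each at 2 µM over 24 hours, carried into the cells by Endoporter, a peptide added at 6 µl/ml. Both groups were then exposed to lipopolysaccharide (LPS, a bacterial cell wall component) at 10 ng/ml for 4 hours, so the data hold no group without LPS, without Endoporter or without a morpholino. A morpholino is a synthetic antisense oligomer that binds RNA without leading to its cleavage. Whether the replicates came from separate mice or cultures is not stated, so the p-values rest on library-to-library spread alone, and that spread may be technical.

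Glutathione is a tripeptide of glutamate, cysteine and glycine, and it is the main small thiol of animal cells. Its synthesis is usually limited by cysteine, which many cells import as cystine, and by glutamate-cysteine ligase. Thioredoxin is a small protein that reduces disulphides, among them those of the peroxiredoxins that break down hydrogen peroxide. Both systems draw their electrons from NADPH, and many of their genes are known targets of the transcription factor NRF2. In macrophages exposed to LPS, which make superoxide and nitric oxide, these systems hold peroxide and disulphide levels down.

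With Reg1-MOs, 6 of the 10 genes rose and 0 fell. Gclm, the modifier subunit of glutamate-cysteine ligase, was 2.29-fold higher, the sulphiredoxin gene Srxn1 1.88-fold, the thioredoxin reductase gene Txnrd1 1.80-fold, the peroxiredoxin gene Prdx1 1.54-fold, the catalytic ligase subunit Gclc 1.53-fold and the cystine transporter Slc7a11 1.26-fold. The other 4 genes, Gss, Txn1, Gpx1 and Gsr, did not pass the test. A rise or fall means an adjusted p under 0.05 by limma's moderated test over all 11111 genes, with Benjamini-Hochberg adjustment. By the same rule 6.22% of all genes rose and 6.03% fell, 12.2% in either direction. At an unadjusted p under 0.05, 8 of the 10 genes were higher and 0 lower. Such p-values were common over all genes: Gss, at an unadjusted limma p of 0.0234, ranked 2401st of the 11111 genes by p. Counts at an unadjusted p, here and in the lists below, have that background. Limma with voom weights also called 6 rises and 0 falls among the 10 genes, with 705 rises and 699 falls over all genes. The median log2 fold change was 0.53 over the 10 genes and -0.03 over all genes. Both Reg1-MOs libraries lay above both Ctrl MO libraries for 9 of the 10 genes, against 27.1% of all genes. The number of rises was 5 when either Ctrl MO library was left out, 6 when Reg1-MOs replicate 1 was, and 7 when Reg1-MOs replicate 2 was.

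**Figure D1:**
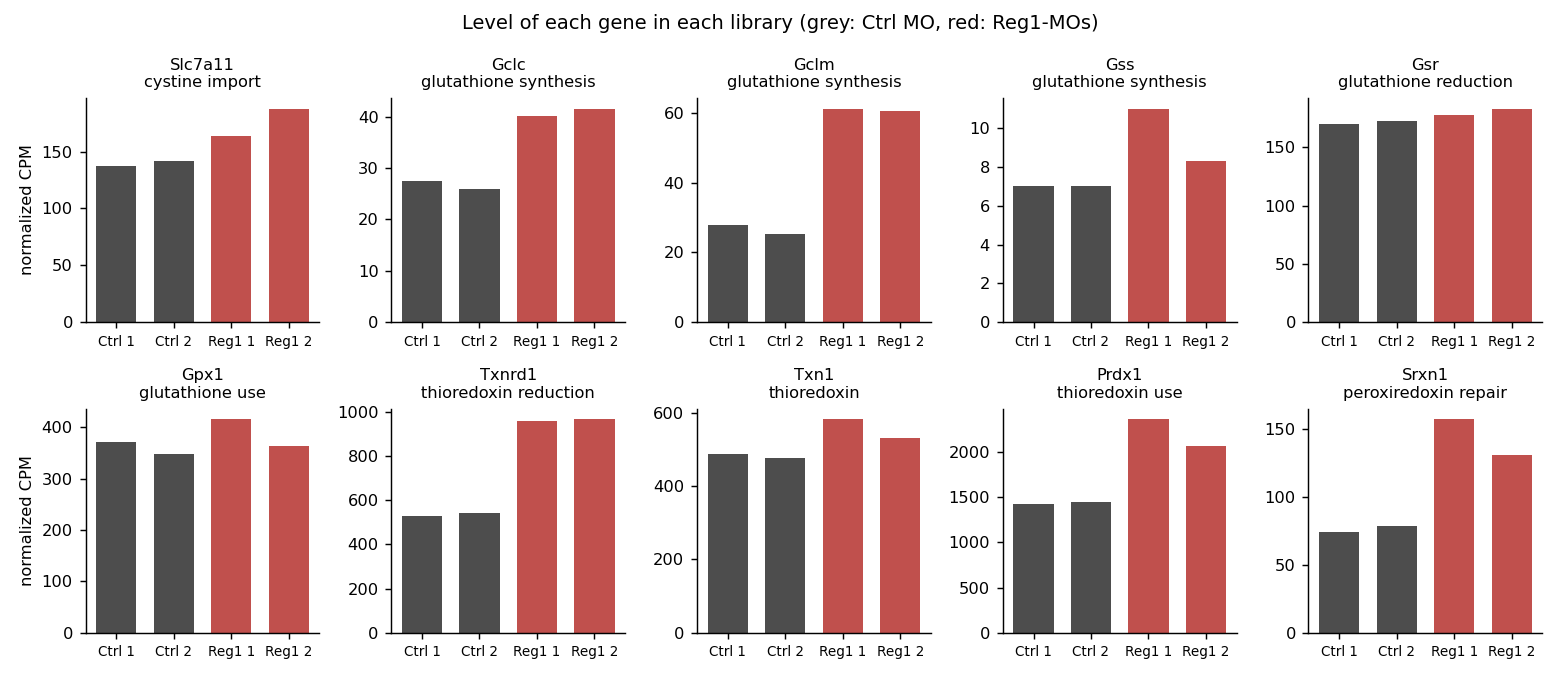
Level of each of the 10 genes in each library, in normalized CPM (deposited log2 values on a linear scale), with 1 bar per library and every axis starting at 0. Gclm lies at 25.4 to 27.9 with Ctrl MO and 60.6 to 61.3 with Reg1-MOs, whereas the 4 bars of Gsr lie between 170 and 183.

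The libraries held 23369753 to 25213695 reads in the table, with a median of 404 to 437 reads per gene. Levels are given as normalized CPM, the deposited log2 values put back on a linear scale (reads plus 0.5, over the library size that the deposited scale implies). Zc3h12a, the gene of Regnase-1, stood at 179 and 187 with Ctrl MO against 403 and 380 with Reg1-MOs (log2 fold change 1.10, SE 0.07, adjusted p by limma = 4.01e-04). A change in the level of this mRNA does not by itself measure the action of the morpholinos. The macrophage genes Csf1r (2006 and 2069 with Ctrl MO, 2028 and 2080 with Reg1-MOs) and Adgre1 (3723 and 3822, 3259 and 3390) were abundant in each library. Of 10 macrophage identity genes, limma called a rise of Cd68 and falls of Lyz2 and Itgam. At an unadjusted p under 0.05, 3 of the 10 were higher and 4 lower. With equal totals, median scaling or voom weights, limma called 1 rise and 3 falls among them. The Cd68 call ended when Ctrl MO replicate 1 (adjusted p = 0.0938), Ctrl MO replicate 2 (0.210) or Reg1-MOs replicate 1 (0.0796) was left out. That of Lyz2 ended when any 1 library was left out (0.0532 to 0.355) and with quantile normalization (0.0885). With no variance trend the calls of Cd68 (0.125), Lyz2 (0.134) and Itgam (0.0585) all ended. Of 12 stromal and fibroblast markers, 9 are among the genes analysed here (Pdgfra, Lum and Thy1 are not) and all 9 fell. Their summed level was 216 to 222 with Ctrl MO and 85.8 to 96.8 with Reg1-MOs, and their part in the changes of the 10 genes was not tested. The 9 neutrophil markers analysed summed to 413 to 469 and 333 to 434 and limma called 0 of them, with 0 higher and 2 lower at an unadjusted p under 0.05 and 0 by voom. None of 8 dendritic cell markers, only Cd4 of 10 lymphocyte markers and only Kit of 9 erythroid and mast cell markers is among the genes analysed. Kit stood at 3.70 and 3.75 with Ctrl MO and at 2.30 and 2.39 with Reg1-MOs (log2 fold change -0.67, limma adjusted p = 0.0462). Its call ended when any 1 library was left out (0.0701 to 0.217), with quantile normalization (0.0573), with voom weights (0.0516) and among genes averaging 50 reads or more (0.0513). In a bulk sample, fewer cells of a type and less RNA per cell cannot be told apart.

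RefSeq promoter windows on GRCm38.p6 were matched by symbol for 8 of the 10 genes (not for Gclc and Gsr), 10 windows in all since Txnrd1 has 3. Stretches are shown for the 5 genes with a window that held a match to the letters given next. These 5 are also those of the 6 genes that rose that have a window. The 250 bases before each start were searched on both strands for 3 sets of letters: TGACNNNGC, a core of the antioxidant response element to which NRF2 and small Maf proteins bind; TGANTCA, the site of AP-1 factors; and TGATGNAA, a form of the amino acid response element read by ATF4. The first was found in 1 window each of Gclm, Prdx1 and Txnrd1, against 10.2% of the 32851 windows of all genes. The second was found at 2 places each in Srxn1 and Prdx1 (6.75% of all windows hold it). Of the Prdx1 matches, 1 lies inside the match to the first set and the other outside the stretch shown. The third was found at 2 places in Slc7a11, once on each strand (3.45% of all windows). No match to the 3 was found in the windows of Gss, Txn1 and Gpx1. A looser core, TGANNNNGC, was added after these matches had been seen: 6 of the 10 windows hold it, those of Gclm, Prdx1, Srxn1 and Slc7a11 and 2 of Txnrd1, against 35.2% of all windows. In Srxn1, the looser match at 45 to 37 bases before the start holds 1 of the 2 AP-1 matches. The looser match of Slc7a11 at the same distance overlaps a match to the third set. A match is a string of letters and not a measured binding site. The stretches below run 5′ to 3′ on the strand of the gene, with the matches to the first 3 sets in capitals, and lie 14 to 159 bases before the RefSeq start.
Gclm, chr3:122245398-122245456, plus strand: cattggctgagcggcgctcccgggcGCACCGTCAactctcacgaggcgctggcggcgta
Prdx1, chr4:116685441-116685499, plus strand: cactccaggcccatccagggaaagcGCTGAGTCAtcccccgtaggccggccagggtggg
Txnrd1, second window, chr10:82859089-82859147, plus strand: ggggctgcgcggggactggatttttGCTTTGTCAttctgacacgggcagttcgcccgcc
Srxn1, chr2:152105397-152105510, plus strand: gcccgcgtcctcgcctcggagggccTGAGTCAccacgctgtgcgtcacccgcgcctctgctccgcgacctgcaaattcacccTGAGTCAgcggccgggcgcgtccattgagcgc
Slc7a11, chr3:50443628-50443704, minus strand: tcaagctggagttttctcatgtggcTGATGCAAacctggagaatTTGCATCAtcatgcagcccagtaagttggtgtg

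Slc7a11 (ENSMUSG00000027737; chromosome 3, 49892526 to 50443614 on GRCm38, minus strand) encodes the light chain of the cystine and glutamate exchanger, which brings in cystine and lets glutamate out. Its level was 137 and 141 with Ctrl MO, and it was 163 and 188 with Reg1-MOs. Both Reg1-MOs libraries were higher than both controls, and replicate 2 was the higher of the pair. The log2 fold change was 0.33 (SE 0.08, adjusted p by limma = 0.0428). This call ended when Ctrl MO replicate 1 (0.31, adjusted p = 0.210), Ctrl MO replicate 2 (0.36, adjusted p = 0.149) or Reg1-MOs replicate 2 (0.23, adjusted p = 0.0717) was left out. It also ended when limma was run with no variance trend (0.33, adjusted p = 0.158). Slc3a2, the heavy chain with which the exchanger is held in the membrane and which it shares with other amino acid transporters, stood at 541 and 523 with Ctrl MO and at 693 and 664 with Reg1-MOs (log2 fold change 0.35, SE 0.06, adjusted p = 0.0135). Its call ended when Ctrl MO replicate 1 (0.38, adjusted p = 0.0876), Ctrl MO replicate 2 (0.33, adjusted p = 0.179) or Reg1-MOs replicate 1 (0.32, adjusted p = 0.0581) was left out.

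Both subunits of glutamate-cysteine ligase, the enzyme of the first and rate-limiting step of glutathione synthesis, rose. Gclc (ENSMUSG00000032350; chromosome 9, 77754535 to 77794485, plus strand), the catalytic subunit, stood at 27.4 and 26.0 with Ctrl MO and at 40.1 and 41.6 with Reg1-MOs. The groups did not overlap, and the log2 fold change was 0.61 (SE 0.08, limma adjusted p = 0.00493). Gclm (ENSMUSG00000028124; chromosome 3, 122245557 to 122270732, plus strand), the modifier subunit, which lowers the catalytic subunit's need for glutamate and its inhibition by glutathione, stood at 27.9 and 25.4 with Ctrl MO and at 61.3 and 60.6 with Reg1-MOs. The 2 Reg1-MOs libraries were nearly equal and the log2 fold change was 1.20 (SE 0.09, adjusted p = 5.997e-04). It was the 86th highest fold change of the 11111 genes. In reads per kilobase of exon within the same library, Gclm was at 0.609 and 0.584 of Gclc with Ctrl MO and at 0.915 and 0.873 with Reg1-MOs. The 95% intervals of the log2 fold changes, 1.00 to 1.40 for Gclm and 0.41 to 0.81 for Gclc, did not overlap, and the difference between the subunits was not tested by itself.

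Gss (ENSMUSG00000027610; chromosome 2, 155563181 to 155592810, minus strand) encodes glutathione synthetase, which adds glycine in the second step. It was the lowest of the 10 genes, with 133 reads in each Ctrl MO library and 213 and 147 with Reg1-MOs, or 7.00 and 7.00 against 11.02 and 8.30 CPM. The 2 Reg1-MOs libraries differed from each other by 0.41 on the log2 scale, nearly as much as the groups did. The log2 fold change was 0.45 (95% interval 0.08 to 0.82, limma adjusted p = 0.108), and it was 0.25 without Reg1-MOs replicate 1 and 0.65, past the threshold (adjusted p = 0.0455), without Reg1-MOs replicate 2. The exons of Gss overlap those of Acss2 on the other strand over 6.68% of their length, and 7.77% of the 75-base runs of its transcripts also occur in another annotated gene. The strand setting of the counting is not given in the sources used here, and Acss2 stood at 0.22 (adjusted p = 0.463).

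Gsr and Gpx1, which turn glutathione over, did not pass. Gsr (ENSMUSG00000031584; chromosome 8, 33652523 to 33698163, plus strand), the NADPH-dependent reductase that regenerates glutathione from its disulphide, stood at 170 and 172 with Ctrl MO and at 178 and 183 with Reg1-MOs. The Reg1-MOs libraries were slightly higher, and the log2 fold change of 0.08 had a 95% interval of -0.07 to 0.23 (limma adjusted p = 0.463), which corresponds to 0.951-fold to 1.17-fold. Gpx1 (ENSMUSG00000063856; chromosome 9, 108338903 to 108340343, plus strand), a selenium-containing peroxidase that uses glutathione to reduce hydrogen peroxide, stood at 372 and 349 with Ctrl MO and at 415 and 364 with Reg1-MOs. It was the only one of the 10 genes whose groups overlapped, since Reg1-MOs replicate 2 was below Ctrl MO replicate 1. The log2 fold change was 0.11 (95% interval -0.08 to 0.30, adjusted p = 0.411). Leaving out 1 library gave values from 0.01 (Reg1-MOs replicate 1) to 0.21 (Reg1-MOs replicate 2).

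**Figure D2:**
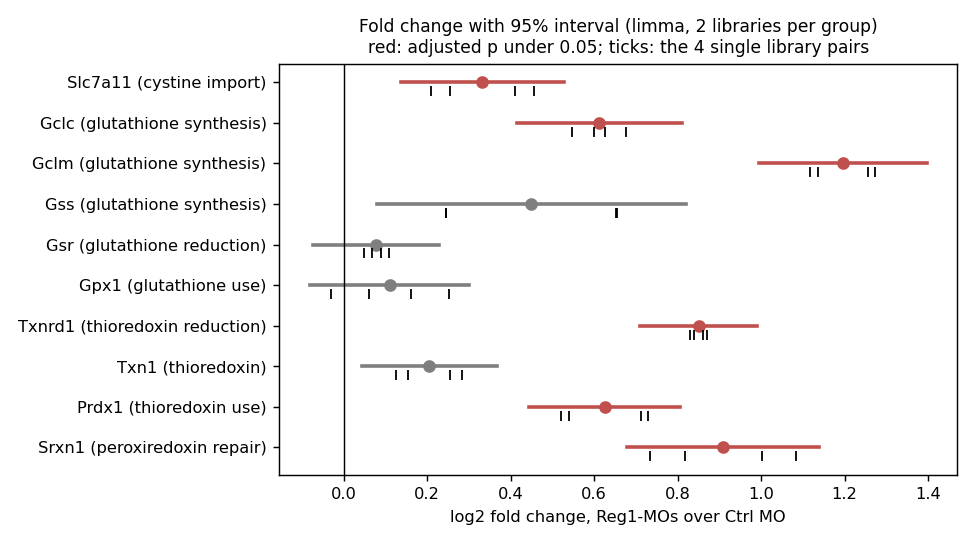
Log2 fold change of each gene, Reg1-MOs over Ctrl MO, as a point with its 95% interval by limma (2 libraries per group); short ticks mark the differences of the 4 single pairs of libraries. The intervals of the 6 genes that rose lie above 0, those of Gsr and Gpx1 include 0, and those of Gss and Txn1 lie above 0 although neither passed after adjustment.

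Of the cytosolic thioredoxin pair, the reductase gene rose and the thioredoxin gene did not pass. Txnrd1 (ENSMUSG00000020250; chromosome 10, 82833951 to 82897712, plus strand) encodes the selenium-containing reductase that passes electrons from NADPH to thioredoxin. Its level was 529 and 541 with Ctrl MO, and it was 961 and 967 with Reg1-MOs. The replicates of each group lay close together, and the log2 fold change was 0.85 (SE 0.06, limma adjusted p = 5.957e-04), the 21st smallest p of the table. The table gives 1 value per gene, so transcripts from the 3 starts of Txnrd1 cannot be told apart. Txn1 (ENSMUSG00000028367; chromosome 4, 57943373 to 57956411, minus strand), cytosolic thioredoxin, stood at 487 and 477 with Ctrl MO and at 581 and 531 with Reg1-MOs. The groups did not overlap, but the log2 fold change of 0.20 (95% interval 0.04 to 0.37, limma adjusted p = 0.0980) did not pass. It was 0.27 and passed (adjusted p = 0.0449) when Reg1-MOs replicate 2 was left out, and 0.14 when replicate 1 was. Per kilobase of exon, there were 6.21 and 5.95 Txn1 reads for each Txnrd1 read with Ctrl MO against 4.08 and 3.70 with Reg1-MOs. The level of this ratio depends on the gene length used: with the longest coding transcript of each gene it was 3.17 and 3.04 against 2.08 and 1.89. The 95% interval of Txnrd1, 0.71 to 0.99, lay above that of Txn1, and the difference itself was not tested.

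The peroxiredoxin gene and the gene of its repair enzyme both rose. Prdx1 (ENSMUSG00000028691; chromosome 4, 116685544 to 116700822, plus strand) encodes a cytosolic peroxidase that reduces hydrogen peroxide with electrons from thioredoxin. It stood at 1423 and 1440 with Ctrl MO and at 2358 and 2068 with Reg1-MOs. The groups were far apart and Reg1-MOs replicate 1 was the higher, and the log2 fold change was 0.63 (SE 0.08, adjusted p by limma = 0.00334). Without a variance trend the fold change was the same and the adjusted p was 0.0595. Srxn1 (ENSMUSG00000032802; chromosome 2, 152105516 to 152111376, plus strand) encodes sulphiredoxin, which restores peroxiredoxins whose active cysteine has been overoxidised to sulphinic acid. It stood at 74.1 and 78.5 with Ctrl MO and at 157 and 131 with Reg1-MOs (log2 fold change 0.91, SE 0.10, adjusted p = 0.00221). Here too replicate 1 was the higher of the Reg1-MOs pair, and the gap of 0.27 between the 2 was smaller than that between the groups. Per kilobase of exon, there were 17.8 and 17.0 Prdx1 reads for each Srxn1 read with Ctrl MO against 13.9 and 14.7 with Reg1-MOs. By the longest coding transcript of each gene, this ratio was 23.5 and 22.5 against 18.4 and 19.4.

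The 10 genes added up to 3254 and 3258 CPM with Ctrl MO and to 4927 and 4541 with Reg1-MOs, and Prdx1 held the largest part of each sum. Per kilobase of exon (GENCODE M21, all exons of a gene joined), the order of levels was the same in all 4 libraries. Prdx1 came first (468 and 473 with Ctrl MO), followed by Txn1 (464 and 454), Gpx1 (258 and 242), Txnrd1 (74.7 and 76.3), Gsr (61.8 and 62.6), Srxn1 (26.3 and 27.8), Slc7a11 (9.84 and 10.2), Gclc (7.29 and 6.90), Gclm (4.44 and 4.03) and Gss (1.18 and 1.18). The order was also the same when the longest coding transcript of each gene gave its length, but the gaps between genes were not. Prdx1 and Txn1 were nearly equal per kilobase of exon with Ctrl MO and stood at 775 and 679 against 553 and 505 with Reg1-MOs, whereas by the longest transcript they stood at 620 and 628 against 463 and 454 already with Ctrl MO. Gsr was at 0.827 and 0.820 of Txnrd1 per kilobase of exon with Ctrl MO, against 0.477 and 0.488 with Reg1-MOs. By the longest transcript these ratios were 0.436 and 0.432 with Ctrl MO against 0.251 and 0.257 with Reg1-MOs. Gss moved most with the choice of length, to 3.56 and 3.57 with Ctrl MO by the longest transcript. With Reg1-MOs, Slc7a11 was at 11.7 and 13.5, Gclc at 10.7 and 11.04 and Gclm at 9.75 and 9.63. Differences between these genes were not tested.

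**Figure D3:**
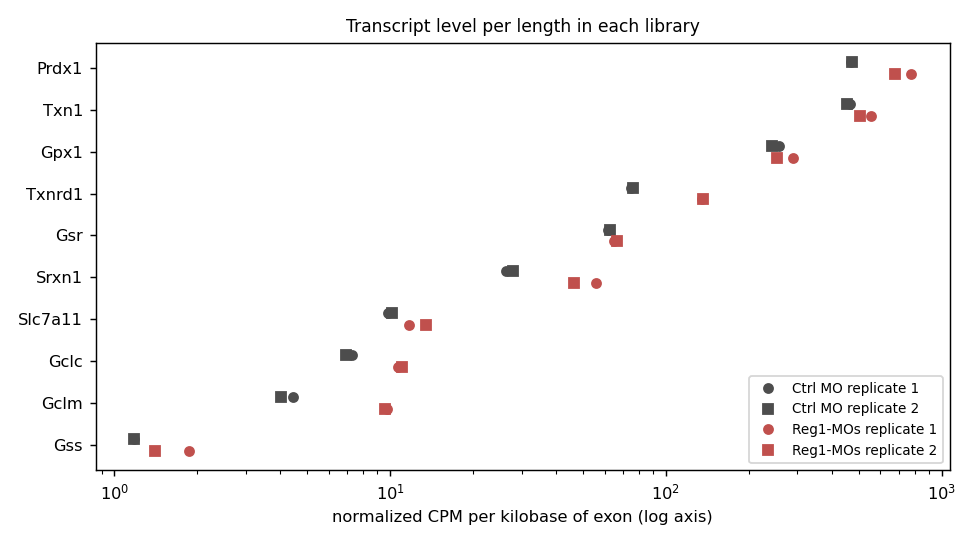
Normalized CPM per kilobase of exon for the 10 genes, ordered by their mean, on a log axis, with 1 point per library. The levels run from 1.18 for Gss to 775 for Prdx1, and Txnrd1 is at 136 in both Reg1-MOs libraries beside Gsr at 64.7 and 66.6.

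Over all genes, the 2 Reg1-MOs libraries differed from each other more than the 2 Ctrl MO libraries did. The chi-square of their reads per degree of freedom was 15.11 against 4.22, and the fit used 1 spread for both groups. Across the 10 genes, the 2 Reg1-MOs libraries were not ordered alike. Gclm, Gss, Txn1, Srxn1, Prdx1 and Gpx1, 6 of the 10, were higher in replicate 1, and Slc7a11, Gclc, Gsr and Txnrd1 in replicate 2. The calls of Gclc, Gclm, Txnrd1, Prdx1 and Srxn1 held with any 1 of the 4 libraries left out, with limma adjusted p up to 0.0419 (Gclc without Reg1-MOs replicate 1). The columns of these libraries carry the names MO1 and MO2, which the labels also use for the 2 morpholinos. The labels do not settle if a library had only 1 of them.

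**Figure D4:**
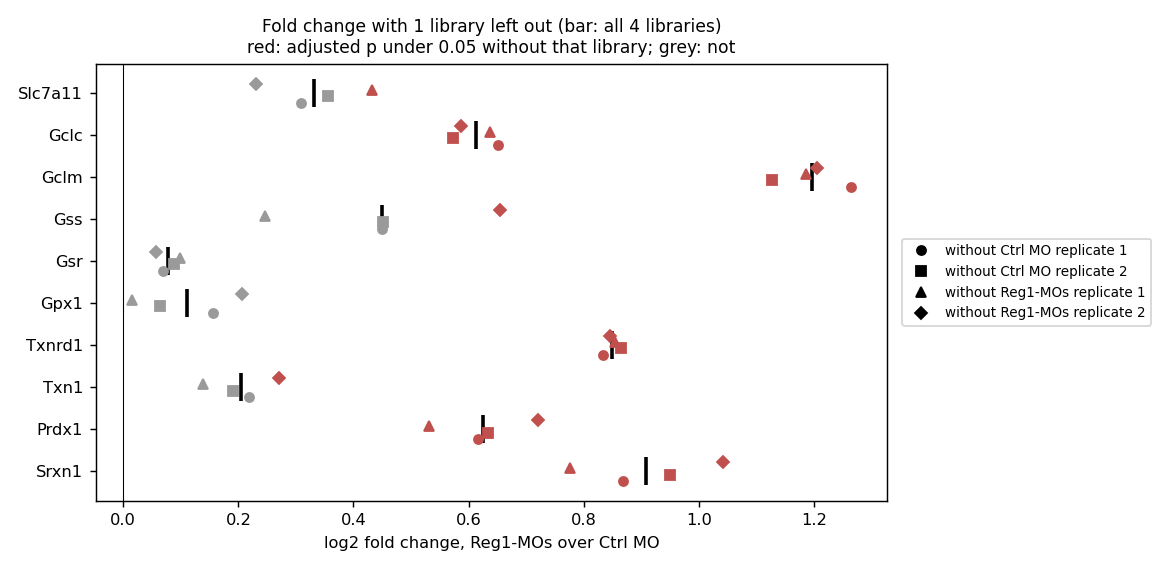
Log2 fold change of each gene with 1 of the 4 libraries left out (symbols) and with all 4 (bar); red marks an adjusted p under 0.05 by limma. Slc7a11 is red only without Reg1-MOs replicate 1 (0.43), and Gss (0.65) and Txn1 (0.27) only without Reg1-MOs replicate 2.

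Some of the reads of these genes could belong to other annotated genes, either copies elsewhere or genes that overlap them. Of the 75-base runs in their transcripts, 3.50% in Gclm, 4.03% in Prdx1 and 0.611% in Slc7a11 occur exactly in another annotated gene, and none in Gclc, Gsr, Gpx1, Txnrd1, Txn1 and Srxn1. For Gclm, all 223 such runs occur in Gm17494, a gene on the opposite strand that overlaps 4.7% of the exon length of Gclm. The pseudogene Gm6061, on the same strand, overlaps 3.9% of it. Neither is among the genes analysed. Of the same runs of Gclm, 181 also occur in the isomerase gene Ppia. It stood at 126 and 116 with Ctrl MO and at 130 and 116 with Reg1-MOs (log2 fold change 0.02, limma adjusted p = 0.877). How the counting treated such reads is not given in the sources used here, so the levels of Gclm, Prdx1, Slc7a11 and Gss are uncertain to that extent. Inexact copies were not searched.

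Neighbouring genes of the same pathways were read from lists that do not hold the 10 genes. Among 8 genes of cysteine supply and cystine uptake, Slc3a2 rose and Mat2a, which makes S-adenosylmethionine from methionine, fell (189 and 184 against 125 and 135; log2 fold change -0.52, SE 0.07, limma adjusted p = 0.00482). The Mat2a call ended without a variance trend (adjusted p = 0.0599). Slc1a5, a carrier of glutamine and other neutral amino acids, stood at 0.33 (adjusted p = 0.0822). Cbs and Cth, which make cysteine from homocysteine, are not among the genes analysed. Among 12 genes of glutathione turnover and export, 2 rose and 3 fell, with a median of -0.08. Abcc1, an export pump for glutathione conjugates and glutathione disulphide, rose from 321 and 343 to 507 and 546 (0.66, SE 0.07, adjusted p = 0.00211). Slc25a39, a carrier that takes glutathione into mitochondria, rose from 51.4 and 47.9 to 68.2 and 64.0 (0.41, adjusted p = 0.0187). Slc25a40, a carrier gene of the same family, was lower with Reg1-MOs, at 3.64 and 3.44 against 2.24 and 2.39. Its log2 fold change of -0.61 did not pass (limma adjusted p = 0.0631). The dipeptidase genes Dpep3 (-0.81, adjusted p = 0.00522) and Dpep2 (-0.43, 0.00851) and the aminopeptidase gene Lap3 (-0.37, 0.0164) fell. Chac1, which degrades glutathione in the cytosol, stood at -0.04 (adjusted p = 0.842; 0.02 without Ctrl MO replicate 2). The list had 2 rises and 1 fall without Ctrl MO replicate 1, where the calls of Dpep2 (adjusted p = 0.0802) and Lap3 (0.156) ended. Without Ctrl MO replicate 2 it had 1 rise and 2 falls, with Slc25a39 at 0.175 and Lap3 at 0.109. Without Reg1-MOs replicate 1 it also had 1 and 2, with Slc25a39 at 0.0863 and Lap3 at 0.0623.

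Among 9 other glutathione peroxidases, glutaredoxins and related genes, 2 rose and 1 fell. The glutaredoxin gene Glrx stood at 84.4 and 85.8 with Ctrl MO and at 117 and 124 with Reg1-MOs (log2 fold change 0.50, SE 0.07, limma adjusted p = 0.00544). Esd, an esterase that releases glutathione from S-formylglutathione, rose by 0.58 (adjusted p = 0.006925), and the secreted peroxidase gene Gpx3 fell by 0.85 (adjusted p = 0.0174). These 3 calls held with any 1 library left out and ended without a variance trend (adjusted p = 0.0595, 0.0776 and 0.0964). Gpx4, which reduces lipid peroxides, stood at 0.11 (95% interval -0.09 to 0.31, adjusted p = 0.424). Among 14 other thioredoxins and reductases, 2 rose and 0 fell, while 2 were lower at an unadjusted p under 0.05. The testis-type reductase gene Txnrd3, at 4.06 and 3.17 against 6.37 and 6.05, rose by 0.79 (adjusted p = 0.0263) and Txnl1 by 0.37 (0.0160). The Txnrd3 call ended without Ctrl MO replicate 2 (adjusted p = 0.116) and when replicate 1 (0.130) or 2 (0.0800) of Reg1-MOs was left out. The Txnl1 call ended without Ctrl MO replicate 1 (0.0606), Ctrl MO replicate 2 (0.199) or Reg1-MOs replicate 1 (0.0753). Nxn, a thioredoxin-like protein gene, stood at -0.58 (adjusted p = 0.0653). The mitochondrial forms Txnrd2 (0.29, adjusted p = 0.134) and Txn2 (0.10, 0.681; -0.09 without Ctrl MO replicate 2 and -0.03 without Reg1-MOs replicate 1) and the thioredoxin-binding Txnip (0.08, 0.465) did not pass.

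Among 11 other peroxiredoxins, sestrins and methionine sulphoxide reductases, 2 rose and 0 fell, while 1 was lower at an unadjusted p under 0.05. Msrb1, a selenium-containing methionine sulphoxide reductase, stood at 44.2 and 38.7 with Ctrl MO and at 71.0 and 58.7 with Reg1-MOs (log2 fold change 0.64, SE 0.11, limma adjusted p = 0.0127). Prdx5 rose by 0.25 (adjusted p = 0.0448). The other family members were Prdx4 at 0.29 (adjusted p = 0.0508), Prdx2 at 0.23 (0.102), Prdx3 at 0.12 (0.407) and Prdx6 at 0.03 (0.843), against 0.63 for Prdx1, differences that were not tested. The Prdx5 call ended without Ctrl MO replicate 1 (adjusted p = 0.260), Ctrl MO replicate 2 (0.439) or Reg1-MOs replicate 1 (0.107). With Reg1-MOs replicate 1 left out, the Msrb1 call ended (0.0857) and Prdx6 stood at -0.02. Prdx2 passed when replicate 2 was left out (0.33, adjusted p = 0.0408). Prdx4 passed with equal totals (adjusted p = 0.0431), median scaling (0.0498), quantile normalization (0.0475) and voom weights (0.0482). It also passed among genes averaging 50 reads or more, by a margin that rounds away (0.05). Of 4 genes for superoxide dismutases, their copper chaperone and catalase, limma called 0 and voom weights 0, and 1 was higher and 1 lower at an unadjusted p under 0.05. The chaperone gene Ccs stood at -0.27 (adjusted p = 0.150), Cat at 0.08 (0.496), Sod2, the most abundant, at -0.00 (0.977), and Sod1 at 0.32 (0.0742; 0.46 and 0.0328 without Reg1-MOs replicate 2).

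**Figure D5:**
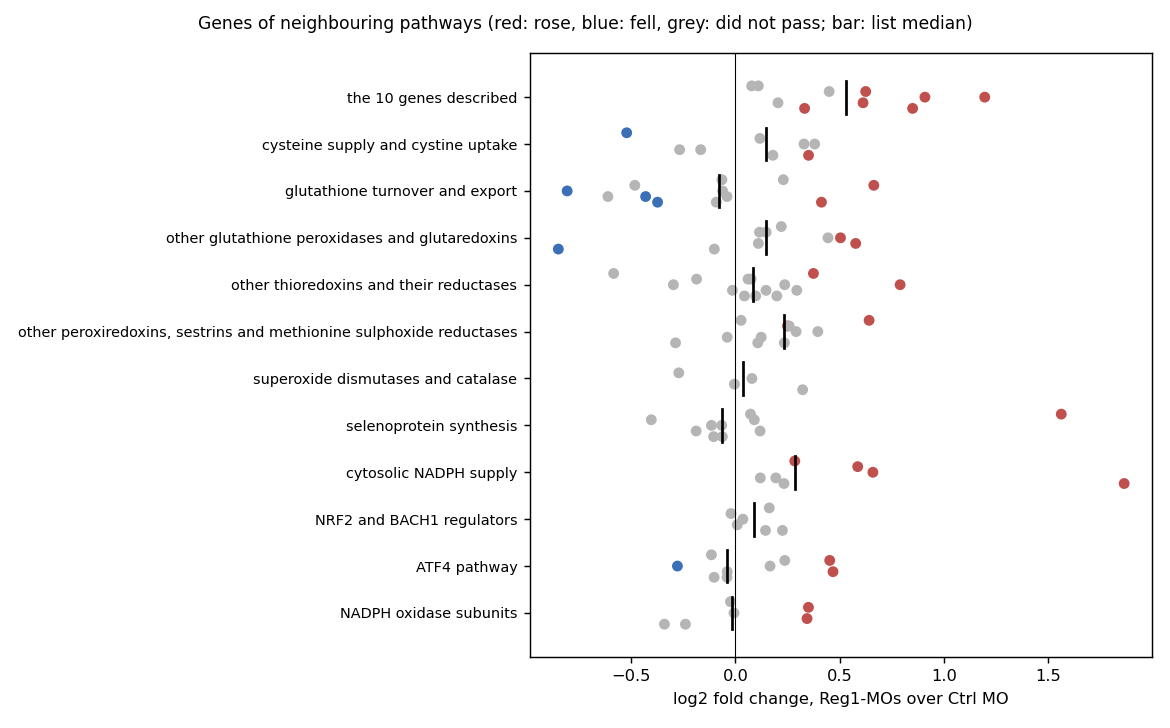
Log2 fold change, Reg1-MOs over Ctrl MO, of each gene in the lists of neighbouring pathways, with 1 point per gene, a bar at each list's median, red for rises and blue for falls at a limma adjusted p of 0.05. The median of the 10 genes is 0.53, and the medians of the other lists lie between -0.08 and 0.29.

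Genes of cytosolic NADPH supply, on which Gsr and Txnrd1 depend, were all above 0 in log2 fold change: 4 of 7 rose and 0 fell, and 0 were lower at an unadjusted p under 0.05. The malic enzyme gene Me1 stood at 2.39 and 2.18 with Ctrl MO and at 8.64 and 7.96 with Reg1-MOs (log2 fold change 1.86, SE 0.15, limma adjusted p = 0.00108). The pentose phosphate genes Pgd (0.66, SE 0.08, limma adjusted p = 0.002717), Taldo1 (0.59, SE 0.08, adjusted p = 0.00517) and Tkt (0.29, adjusted p = 0.0488) rose, and G6pdx, the entry enzyme, stood at 0.23 (adjusted p = 0.0835). The Tkt call ended without Ctrl MO replicate 1 (adjusted p = 0.200), Ctrl MO replicate 2 (0.341) or Reg1-MOs replicate 1 (0.113). It also ended with quantile normalization (0.0580), with voom weights (0.0503) and among genes averaging 50 reads or more (0.0519). Of 6 genes that encode NRF2, its inhibitor KEAP1, the repressor BACH1 and small Maf proteins, limma called 0, as did voom weights, and 1 was higher at an unadjusted p under 0.05. Nfe2l2, which encodes NRF2, stood at 349 and 364 with Ctrl MO and at 398 and 390 with Reg1-MOs (0.14, 95% interval -0.00 to 0.29, adjusted p = 0.176). The NRF2 inhibitor gene Keap1 stood at 0.01 (adjusted p = 0.945), and its sign turned when Ctrl MO replicate 2 (-0.03) or Reg1-MOs replicate 2 (-0.01) was left out. The small Maf genes Mafk and Maff stood at 0.23 (adjusted p = 0.0611, and 0.0411 with equal totals) and 0.16 (0.261). NRF2 is controlled mainly as a protein, which RNA sequencing does not measure. Of 9 genes of the ATF4 pathway, which also acts on Slc7a11, 2 rose and 1 fell, with Atf4 itself at -0.10 (adjusted p = 0.352). The rises were those of Ddit3 (0.47, adjusted p = 0.0151) and Phgdh (0.45, 0.0393) and the fall that of Psat1 (-0.28, 0.0484). Phgdh and Psat1 did not pass without any 1 of the 4 libraries (adjusted p up to 0.369), nor did Ddit3 without Ctrl MO replicate 1 (0.0741), Ctrl MO replicate 2 (0.0662) or Reg1-MOs replicate 1 (0.0718). With equal totals the Psat1 call ended (0.0587) and Asns, the asparagine synthetase gene, was added as a rise (0.26, adjusted p = 0.0496), which made 3 rises and 0 falls. With no variance trend, Abcc1, Dpep3 and Me1 kept their calls, as did Lrp8, described below (limma adjusted p = 0.0435). Every other rise or fall named so far from these pathway lists ended, with adjusted p from 0.0557 (Pgd) to 0.169 (Tkt).

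The genes whose 4 values lay closest to those of Gclm were sought among 9462 other genes averaging 50 reads or more. After the mean of the Ctrl MO libraries was subtracted from the log2 values, the nearest by Euclidean distance over the 4 libraries was the glycosyltransferase gene Mgat4b (distance 0.09; 69.9 and 66.3 with Ctrl MO, 162 and 162 with Reg1-MOs). Next came Oit3 (distance 0.13; 3.54 and 3.59, 8.28 and 7.795) and Ass1, the argininosuccinate synthase gene (distance 0.14; 38.5 and 35.2, 87.9 and 91.7). Likeness over 4 libraries in 2 groups mostly restates the size of the fold change.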

How the data were processed

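The authors deposited 1 table of 11111 genes with 1 log2 value per gene and library (4 libraries). The submitters' processing notes name HISAT2 1.6.3, cutadapt and FastQC, and the build mm10. The counting tool and strand setting, gene selection and scaling are not stated there. Each deposited log2 value equals log2 of (reads + 0.5) over a library size (normalized CPM): 100% of values gave reads within 0.01 of a whole number. The sizes implied were 17767798 to 19377000, below the table's totals of 23369753 to 25213695.

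Groups came from the sample titles. The test was limma 3.58.1 (R 4.3.3, statmod 1.5.0), two-sided, with a mean-variance trend, on the deposited values of the whole table, with 1 term for group and Benjamini-Hochberg adjustment over the table. It had 2 residual and 5.47 prior degrees of freedom. An exact permutation of 2 against 2 libraries cannot go below p = 0.333. Tested on data simulated for this comparison (11111 genes), the fit called 197 of 200 genes changed by a log2 fold of 1, with 6 false calls. The simulation used the same chosen spread for every gene and both groups, with changes only in genes averaging 50 reads or more. It therefore does not give the error rate of the calls reported here. Exon lengths and positions are from GENCODE M21 (GRCm38, the assembly of mm10) and promoter sequences from RefSeq (GRCm38.p6), with positions counted from 1. Intervals are 95% limma intervals. Named genes are the 10 genes, Zc3h12a, the 3 genes of smallest p in each pathway list, relatives of the 10 genes set beside them, and the 3 genes of values closest to Gclm. A gene that this rule names is not reported here. Csf1r, Adgre1, Cd68, Lyz2, Itgam, Cd4, Ppia, Acss2, Chac1, Lap3, Slc25a39, Tkt, G6pdx, Asns, Kit, Atf4, Keap1, Txnip and Sod2, which fall outside this rule, were picked with their values known. Slc25a40 was also picked with its value known and is not among the 62 other named genes counted below. The 10 genes and all lists were chosen with earlier results of these data known. Alternatives were quantile, equal-total and median scaling, no variance trend, voom weights, a minimum mean of 50 reads, an offset of 8 reads, a replicate block and each library left out, and, chosen after seeing the data, the longest coding transcript as gene length.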

Additional observations from a re-analysis of the deposited data

How the results depend on the processing

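Depth limits Gss most, with 133 to 213 reads per library. All 10 genes kept their direction under all 12 alternatives. Gclc, Gclm, Txnrd1 and Srxn1 kept their calls under all 12, Prdx1 under 11 and Slc7a11 under 8. The 6 calls among the 10 genes were 4 without a variance trend, and 5 to 7 with 1 library left out. Over all genes, the 1361 calls (691 rises, 670 falls) were 377 (195 and 182) without a variance trend, and with 1 library left out 507 to 1390 (249 to 530 rises and 258 to 860 falls). With a replicate block there were 3423 calls (1532 rises and 1891 falls), 8 among the 10 genes, Gss (limma adjusted p = 0.0107) and Txn1 (0.005) being added. No label says that equal replicate numbers share a mouse or day, and the deviations of equally numbered libraries correlated at 0.0958 over all genes and 0.314 over those averaging 50 reads or more. The block also brought Prdx4 (0.00182) and Cybb (7.34e-05) past the threshold. Of 743 values of 62 other named genes under the alternatives, 620 stayed on the same side of the threshold, 83 lost a call, 26 gained one and 14 changed sign, all of them for 7 uncalled genes. With 1 library left out, the log2 fold change ranged from -0.0110 to 0.0342 for Csf1r, -0.0556 to 0.104 for Ppia, -0.0993 to 0.0196 for Chac1, -0.0334 to 0.0516 for Keap1, -0.0402 to 0.0321 for Sod2, -0.0861 to 0.281 for Txn2 and -0.0244 to 0.0795 for Prdx6. Sod2 was at 0.0806 with quantile normalization and 0.0188 with equal totals.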

Other observations

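Among genes for the NADPH oxidase, the superoxide source of macrophages, the membrane subunit gene Cyba stood at 617 and 575 CPM with Ctrl MO against 820 and 697 with Reg1-MOs and rose (log2 fold change 0.34, limma adjusted p = 0.0468). Its call ended when Ctrl MO replicate 1 (adjusted p = 0.0741), Ctrl MO replicate 2 (0.255) or Reg1-MOs replicate 1 (0.130) was left out, with no variance trend (0.174), and among genes averaging 50 reads or more (0.0507). Cybb, the catalytic subunit gene, stood at 5168 and 5470 against 3837 and 4599 (-0.34, adjusted p = 0.0559). Cybb passed with quantile normalization (-0.31, adjusted p = 0.0302), equal totals (-0.32, 0.0327), median scaling (-0.34, 0.0494), voom weights (-0.34, 0.0428) and without Reg1-MOs replicate 2 (-0.47, 0.0327).

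Txnrd1, Gpx1 and Msrb1 contain selenocysteine, which needs its own synthesis and insertion factors. Of 10 such genes, Lrp8, a receptor for selenoprotein P among other ligands, was the only one to rise and 0 fell by limma, with 1 lower at an unadjusted p under 0.05. Lrp8 was low, at 0.970 and 1.18 CPM with Ctrl MO against 3.59 and 2.79 with Reg1-MOs (log2 fold change 1.56, SE 0.24, adjusted p = 0.00754; 1.38 and adjusted p = 0.0694 without Reg1-MOs replicate 1). Sephs2, which makes the selenium donor, stood at 0.12 (adjusted p = 0.317), and Secisbp2l at -0.40 (0.0992; -0.63 and 0.0262 without Reg1-MOs replicate 2).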
